A study of Xenopus laevis with 24 samples.

Results

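The adhesion and matrix genes described here are the transcript records whose GenBank description contains the word cadherin, protocadherin, integrin, fibronectin, laminin, collagen, syndecan, glypican or claudin, and whose mean over all libraries was at least 0.5 FPKM. FPKM scales sequenced fragments to transcript length and library size, so levels can be set beside each other between genes. Of the 31306 records in the table, 84 contained 1 of these words at any level and 54 reached the minimum. The 54 records were picked by name and mean level, but the list was chosen with earlier results of these data known. Of them 37 are the molecules themselves, comprising 6 cadherins, 5 protocadherins, 13 integrin records, 1 fibronectin, 6 collagens, 4 syndecans, 1 glypican and 1 claudin. The other 17 carry the word only for a partner, a substrate or a likeness of name, such as integrin-linked kinase or the collagenases. No description contained the word laminin. At the minimum, integrin beta-like protein 1 was just inside at 0.540 FPKM and the integrin beta-3 subunit just outside at 0.487 FPKM.

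Whole Xenopus laevis (African clawed frog) embryos were sequenced at gastrula stage 10.5, each library coming from 5 pooled embryos. From stage 6 to 7 onward, dishes of 25 embryos had held 1 µM TTNPB, an agonist selective for the retinoic acid receptors, 1 µM AGN193109, an inverse agonist of these receptors, or the vehicle with 0.1% ethanol. Each exposure had 8 libraries, 4 from clutch D and 4 from clutch E, and the labels name no strain, transgene or mutant. Several libraries can hold aliquots of the same dish, so the 8 may not be separately exposed replicates. The comparisons ask which transcripts differ when retinoic acid receptors are activated or held inactive up to the onset of gastrulation.

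Gastrulation reshapes the embryo by cells that crawl, rearrange and separate while holding on to each other and to matrix. Cadherins join cells through like cadherins on the neighbour, protocadherins tune this contact and help tissues to separate, and integrins carry matrix signals into the cell. In Xenopus, fibronectin fibrils on the blastocoel roof are bound mainly by the integrin formed of alpha 5 and beta 1, and the proteoglycans syndecan and glypican take part in matrix contact and in the WNT signals that steer cell movement.

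Library AGN193109 4E stood apart. Its median over the 19635 tested records (mean of at least 1 FPKM) was 2.77 FPKM, against 4.23 to 5.76 in the other 23 libraries, and 79.2% of its summed FPKM lay in 10 records, where the others had 44.1% to 62.8%. Medians were 5.12 to 5.76 FPKM in clutch D and 4.23 to 5.04 FPKM in clutch E without that library. Clutch D itself was split in the share held by the top 10 records. It was 44.1% to 47.9% in AGN193109 2D and 4D, TTNPB 4D and vehicle 3D, and 57.7% to 62.8% in its other libraries. The cause of this split was not tested. Depth is unknown, since FPKM keeps no counts. The labelled stage was met by its markers: brachyury, a mesoderm gene, had a mean of 131 FPKM, chordin of the organizer 63.3 FPKM and SOX3 of the neural plate 184 FPKM, while alpha-globin of blood was at 0 and the highest of 9 late cell type records had a mean of 0.39 FPKM. HoxD1, a known retinoic acid target in the frog, lay between 6.13 and 13.6 FPKM with vehicle and between 28.1 and 41.7 FPKM with TTNPB.

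The most abundant of the molecules themselves were syndecan-1 (126 FPKM over all libraries), XB-cadherin (107 FPKM), fibronectin (80.0 FPKM), the claudin-4 clone (75.2 FPKM), paraxial protocadherin (69.7 FPKM) and C-cadherin (50.4 FPKM). Each was above the level of at least 94.5% of tested records, as was procollagen-proline among the records named for a partner, at 56.4 FPKM. At the other end, 11 of the 54 records had a mean under 1 FPKM and were not tested, among them photoreceptor cadherin, both integrin alpha 4 records, syndecan-3, collagen alpha1(IV) and collagenase 3 (MMP13). The 43 tested records are a choice by level, with 30 molecules and 13 records named for a partner. Several descriptions end early, so 2 records read only collagen and 1 only integrin, and their chain is not stated.

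**Figure D1:**
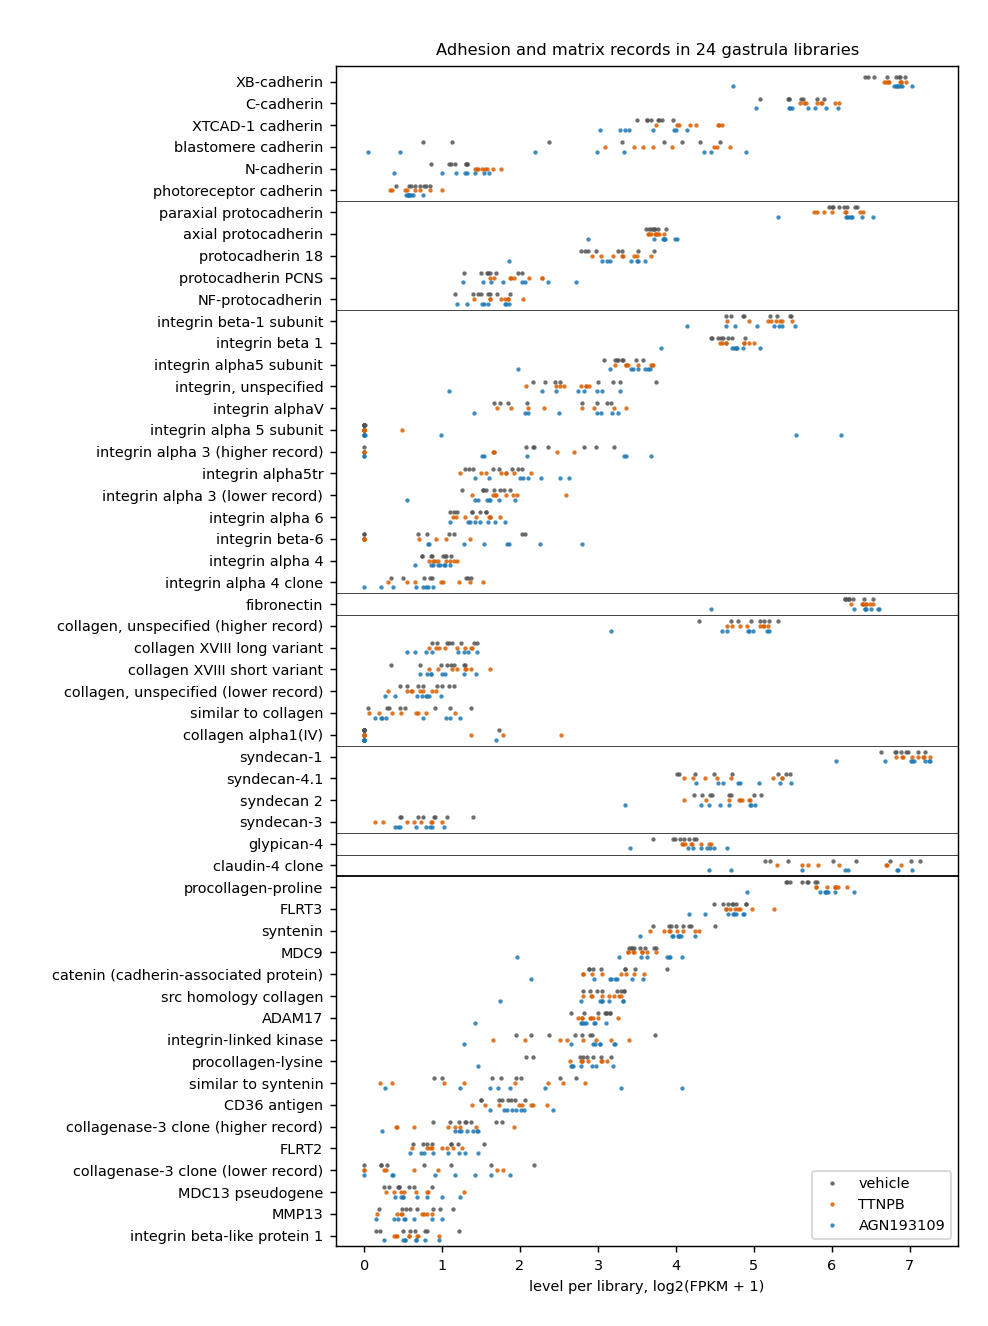
Level of each of the 54 records in each of 24 libraries as log2(FPKM + 1), coloured by exposure, ordered by family and then by mean. Heavy line: molecules above, records named for a partner below. Syndecan-1, XB-cadherin and fibronectin lie at the right, with library AGN193109 4E far to the left of its group in many rows, as at 20.8 FPKM for fibronectin.

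The plot of levels shows wide overlap of the 3 exposures. TTNPB against vehicle gave 0 of 43 tested records past an adjusted p of 0.05 (limma with Benjamini-Hochberg adjustment over all 19635 records), while 0.830% of all tested records passed, 0.784% higher and 0.0458% lower. Before adjustment, 4 of the 43 had a p under 0.05, which is 9.30%, beside 5.90% of all records. The median difference on the log2(FPKM + 1) scale was 0.10 over the 43 records and 0.01 over all records. AGN193109 against vehicle also gave 0 of 43, beside 0.0204% of all records (0.00509% higher and 0.0153% lower), with 2 of 43 at an unadjusted p under 0.05 beside 8.32% of all. The median difference there was -0.00 over the 43 records and -0.03 over all. Those 2 records include the integrin alpha 5 subunit, which reached the minimum for testing only through AGN193109 libraries.

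TTNPB against AGN193109 gave 1 of 43 past the threshold, the XTCAD-1 cadherin, higher with TTNPB, beside 1.08% of all tested records, 0.978% higher and 0.102% lower. Unadjusted, 6 of 43 passed 0.05, beside 7.73% of all. The TTNPB and AGN193109 comparisons share the same vehicle libraries, and all 3 comparisons share libraries by pairs. In each comparison 38 of the 43 records (88.4%) had a 95% interval within a 2-fold change of FPKM + 1 in either direction. Of all tested records this held for 92.4% in TTNPB against vehicle, 91.3% in AGN193109 against vehicle and 91.1% in TTNPB against AGN193109. The interval lay within 1.5-fold for 32, 32 and 29 of the 43, beside 62.9%, 57.2% and 58.2% of all. This scale understates changes of low records, so the counts do not bound the fold change of their FPKM. In whole-embryo pools, fewer cells of a type and less RNA per cell cannot be told apart.

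Without library AGN193109 4E the estimates of TTNPB against vehicle stayed as they were, but the spread shared by all groups was smaller. Then 3 records passed, all higher with TTNPB, beside 1.53% of all tested records: XTCAD-1 cadherin, procollagen-proline and C-cadherin. AGN193109 against vehicle still gave 0 of 43, beside 0.0815% of all, and TTNPB against AGN193109 still gave 1, beside 294 of all 19635 records. The median of all records in these comparisons moved to 0.06 and -0.05.

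**Figure D2:**
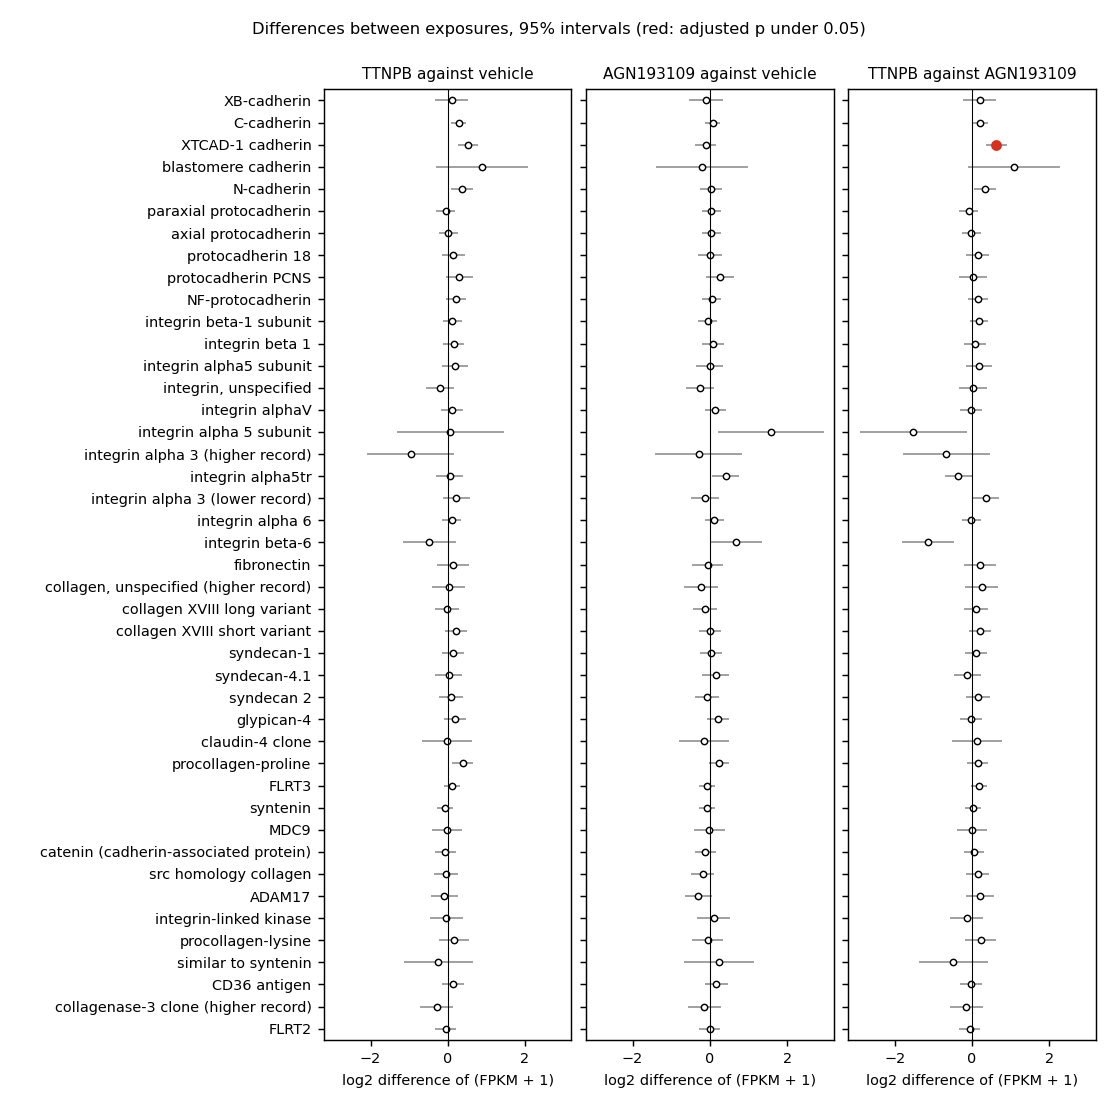
Difference of each of the 43 tested records between exposures, on the log2(FPKM + 1) scale with 95% intervals from limma over 24 libraries. The filled red point is the single record past an adjusted p of 0.05, XTCAD-1 cadherin at 0.63 in TTNPB against AGN193109. The widest intervals belong to blastomere cadherin, the integrin alpha 5 subunit and the higher integrin alpha 3 record.

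The intervals in the plot of differences were narrow for most abundant records and wide for those listed near 0 in some libraries. Among cadherins, all 5 tested records had positive differences in TTNPB against vehicle (median 0.36), as had 10451 of all 19635 tested records. Against AGN193109 all 5 were also positive (median 0.33), as were 11586 of all records, but without AGN193109 4E XB-cadherin was at -0.06 and the median of the 5 at 0.21. The record called XTCAD-1 is described only as a cadherin gene from a clone of that name, so its type and role are not known here. With vehicle, XTCAD-1 cadherin was at 11.4, 11.3, 11.9 and 10.3 FPKM in clutch D and at 12.8, 14.6, 13.1 and 12.6 FPKM in clutch E. With TTNPB it was at 17.2, 12.4, 15.2 and 15.4 FPKM in clutch D and at 22.2, 23.1, 18.2 and 22.5 FPKM in clutch E. With AGN193109 it was at 9.16, 9.51, 12.0 and 8.75 FPKM in clutch D and at 16.7, 14.7, 14.998 and 7.12 FPKM in clutch E. Within each clutch every TTNPB library was above every vehicle library and above every AGN193109 library. The share of all tested records that split this way within clutches was not computed. Across clutches the groups overlapped, since the lowest TTNPB library of clutch D, at 12.4 FPKM, lay under every vehicle library of clutch E.

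XTCAD-1 cadherin had means of 12.2 ± 1.32 FPKM with vehicle, 18.3 ± 3.98 FPKM with TTNPB and 11.6 ± 3.504 FPKM with AGN193109 (SD, n = 8 each). It was higher with TTNPB than with AGN193109 by 0.63 ± 0.13 on the log2 scale (SE), a fold of 1.55, with an adjusted p of 0.00796 from limma. All 8 TTNPB libraries were above the AGN193109 mean of their clutch. How many of all tested records reach such a count was not computed, here or for the records below. TTNPB against vehicle gave 0.52 ± 0.13, a fold of 1.43, with an adjusted p of 0.0596, just short of the threshold. AGN193109 against vehicle gave -0.11 with a 95% interval from -0.38 to 0.16. Without AGN193109 4E the same values were 0.52 for TTNPB against AGN193109 (adjusted p 0.000963), 0.52 for TTNPB against vehicle (adjusted p 0.000627) and 0.00 for AGN193109 against vehicle. Within clutches, TTNPB minus AGN193109 was 0.56 in clutch D and 0.70 in clutch E (adjusted p 0.143 and 0.403 from limma), and TTNPB minus vehicle was 0.39 and 0.65 (adjusted p 0.470 and 0.924). The call against AGN193109 was also lost with only those exposures in the fit, with no clutch term and with clutch means as replicates.

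C-cadherin is the main maternal cadherin of the early Xenopus embryo and its regulated adhesion is needed for convergent extension. It ran from 32.7 through a median of 45.1 to 58.4 FPKM with vehicle, from 47.3 through 55.9 to 67.2 FPKM with TTNPB and from 31.5 through 47.2 to 66.3 FPKM with AGN193109. The ranges overlapped, but all 8 TTNPB libraries were above the vehicle mean of their clutch. The difference of TTNPB from vehicle was 0.28 ± 0.10 on the log2 scale (fold 1.21), with an adjusted p of 0.448 over 24 libraries and 0.0413 without AGN193109 4E (limma). AGN193109 against vehicle was 0.07 with a 95% interval from -0.14 to 0.27.

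N-cadherin, the cadherin of the neural tube, was low at this stage. Its vehicle libraries ran from 0.814 through 1.35 to 1.497 FPKM, TTNPB libraries from 1.68 through 1.88 to 2.39 FPKM and AGN193109 libraries from 0.308 through 1.48 to 2.03 FPKM. The vehicle and TTNPB libraries did not overlap, which held for 1 of the 43 records and for 0.570% of all tested records. No tested record of the set was free of overlap in AGN193109 against vehicle or in TTNPB against AGN193109, beside 0.0357% and 0.632% of all tested records. The difference was 0.36 ± 0.14 on the log2(FPKM + 1) scale, which understates changes at such a level, and did not pass (adjusted p 0.542 from limma, 0.103 without AGN193109 4E).

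XB-cadherin, a maternal cadherin close to C-cadherin, was at 104 ± 14.3 FPKM with vehicle, 111 ± 8.39 FPKM with TTNPB and 105 ± 32.6 FPKM with AGN193109. The last spread held 1 value of 25.5 FPKM, in AGN193109 4E. Against vehicle, TTNPB differed by 0.10 with a 95% interval from -0.33 to 0.53. A second record of this molecule, described as blastomere cadherin, ran from 0.04 to 28.9 FPKM over all libraries. Its difference of 0.89 between TTNPB and vehicle had an interval from -0.29 to 2.07, and the sum of both records gave 0.15 with an interval from -0.25 to 0.54. Photoreceptor cadherin, at 0.557 FPKM, was not tested.

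**Figure D3:**
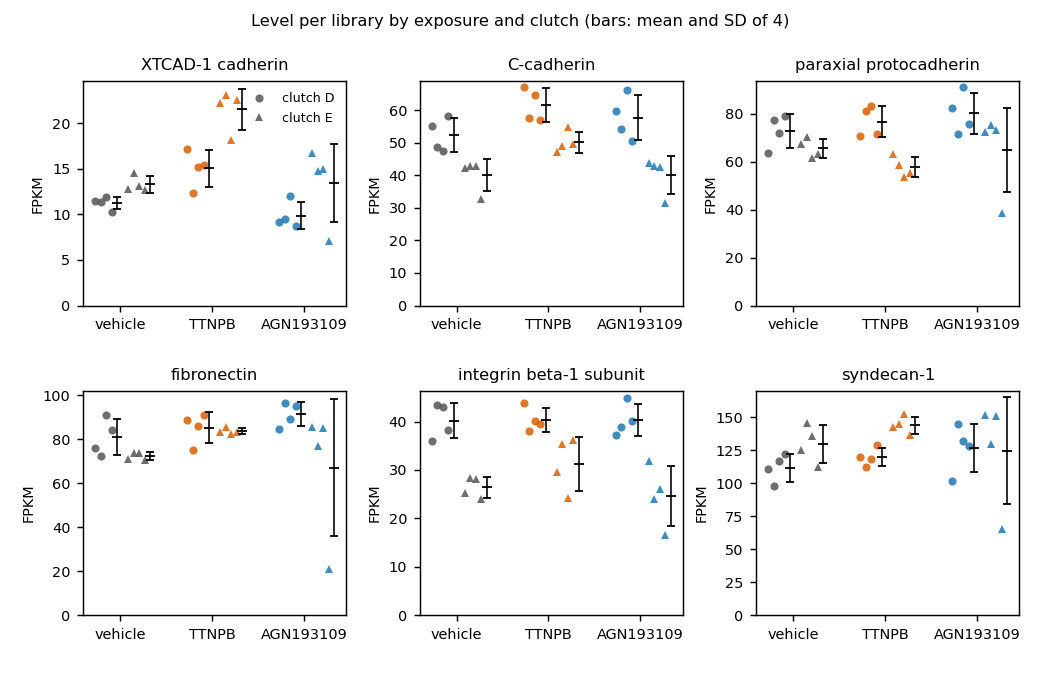
FPKM in each library for 6 records by exposure (circles clutch D, triangles clutch E), with the mean and SD of the 4 libraries beside each set. XTCAD-1 cadherin is highest with TTNPB in both clutches, up to 23.1 FPKM. The low triangle of AGN193109 in each panel is library 4E, at 20.8 FPKM for fibronectin.

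Protocadherins gave 0 of 5 tested records past the threshold in each comparison of exposures. Of all tested records, 0.830% passed for TTNPB and 0.0204% for AGN193109 against vehicle, and 1.08% for TTNPB against AGN193109. At such shares, 0 calls in this family or in those below say little about the family. Paraxial protocadherin, which lowers C-cadherin adhesion in the paraxial mesoderm of Xenopus and helps tissues to separate, ran from 61.6 through 68.8 to 79.1 FPKM with vehicle. TTNPB libraries ran from 53.7 through 66.9 to 83.5 FPKM and AGN193109 libraries from 38.5 through 74.2 to 91.0 FPKM. The groups overlapped throughout, as the plot of 6 records by exposure shows. The difference of TTNPB from vehicle was -0.06 with a 95% interval from -0.30 to 0.19, so a change of 1.5-fold in either direction lies outside it. AGN193109 minus vehicle was 0.04 with an interval from -0.21 to 0.28.

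Axial protocadherin, which marks the notochord and helps its cells to sort, was at 12.2 ± 0.716 FPKM with vehicle, 12.3 ± 0.656 FPKM with TTNPB and 12.8 ± 2.78 FPKM with AGN193109. Its difference of TTNPB from vehicle was 0.01 with a 95% interval from -0.23 to 0.26. NF-protocadherin, needed for the integrity of the frog's embryonic epidermis, was at 1.92 ± 0.423, 2.37 ± 0.444 and 2.02 ± 0.4927 FPKM in the same order. Protocadherin PCNS, known from the frog's somites and neural crest, was the protocadherin with the smallest p in both comparisons against vehicle. It differed by 0.30 with TTNPB and by 0.27 with AGN193109, with intervals from -0.06 to 0.66 and from -0.09 to 0.63. Protocadherin 18 lay at 8.15, 8.98 and 8.40 FPKM with vehicle, TTNPB and AGN193109.

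FLRT3, a membrane protein with fibronectin type III repeats that works with paraxial protocadherin to lower cadherin adhesion in Xenopus, was at 25.5 ± 2.57 FPKM with vehicle, 27.6 ± 4.52 FPKM with TTNPB and 24.4 ± 4.02 FPKM with AGN193109. TTNPB minus vehicle was 0.10 with a 95% interval from -0.11 to 0.31.

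Fibronectin, the main matrix protein of the gastrula, ran from 70.7 through a median of 73.7 to 91.1 FPKM with vehicle. With TTNPB it ran from 74.9 through 84.3 to 90.9 FPKM, and with AGN193109 from 20.8 through 85.3 to 96.6 FPKM. The groups overlapped and the lowest value was again that of AGN193109 4E. For TTNPB against vehicle the difference was 0.14 on the log2 scale with a 95% interval from -0.27 to 0.55. AGN193109 minus vehicle was -0.06 with an interval from -0.47 to 0.35, and 0.18 without AGN193109 4E (adjusted p 0.1496 from limma).

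Integrins had 0 of 11 tested records past the threshold in each comparison of exposures, beside at most 1.08% of all tested records. The beta 1 chain, the partner of most matrix-binding alpha chains, is held by a pair of records, integrin beta-1 subunit at 33.9 FPKM and integrin beta 1 at 25.2 FPKM. The first was at 33.3 ± 7.86 FPKM with vehicle, 35.8 ± 6.28 FPKM with TTNPB and 32.5 ± 9.59 FPKM with AGN193109, and the second at 23.6 ± 2.50, 26.4 ± 3.32 and 25.5 ± 5.57 FPKM. Their sum differed by 0.13 between TTNPB and vehicle (95% interval from -0.12 to 0.37) and by 0.00 between AGN193109 and vehicle (from -0.24 to 0.25). These intervals stay within 1.5-fold.

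The alpha 5 chain, which forms the fibronectin receptor with beta 1, is held by 3 records. The integrin alpha5 subunit was at 8.97 ± 1.09 FPKM with vehicle, 10.3 ± 1.46 FPKM with TTNPB and 9.39 ± 2.88 FPKM with AGN193109. The truncated cytoplasmic variant, integrin alpha5tr, was at 2.23 ± 0.645, 2.34 ± 0.630 and 3.35 ± 1.20 FPKM. It had the smallest p of any integrin in AGN193109 against vehicle, with a difference of 0.41 (95% interval from 0.06 to 0.76, adjusted p 0.534 from limma). The third record, integrin alpha 5 subunit, was under 0.01 FPKM in 20 of 24 libraries. It stood at 68.3 FPKM in AGN193109 2E, at 45.6 FPKM in AGN193109 3E, at 0.98 FPKM in AGN193109 1E and at 0.40 FPKM in TTNPB 1D. Each of those libraries but 1 is of AGN193109 and clutch E, and the record reached the minimum for testing only through them, so its tests are not read here, although it stays in the counts of records at an unadjusted p. The sum of the 3 records, which holds these values, ran from 4.97 to 80.9 FPKM.

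**Figure D4:**
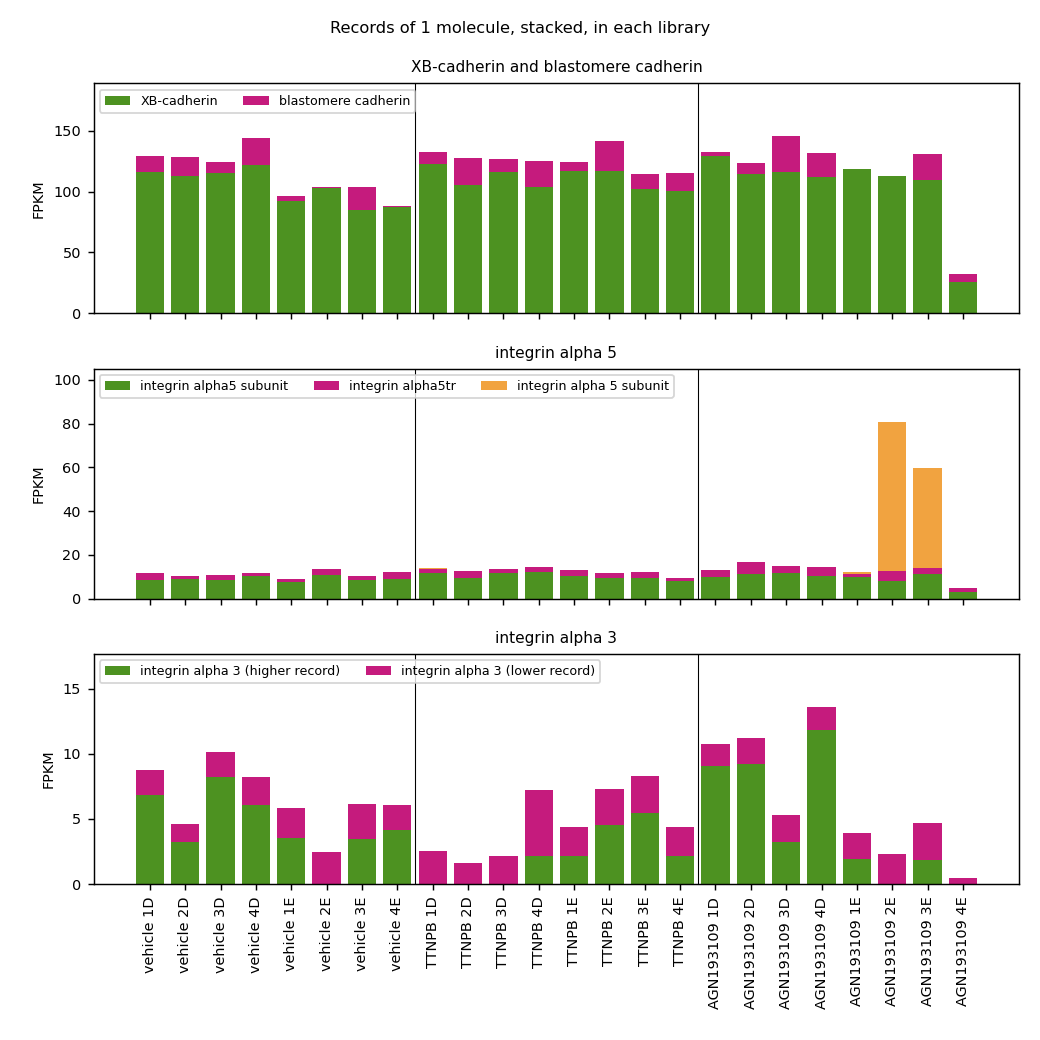
FPKM of records that name the same molecule, stacked for each library, with the exposures divided by lines. The integrin alpha 5 subunit record appears at 68.3 and 45.6 FPKM in AGN193109 2E and 3E and is near 0 elsewhere, while blastomere cadherin varies from 0.04 to 28.9 FPKM beside the XB-cadherin record.

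The stacked plot of records shows the same unevenness for integrin alpha 3, a laminin-binding chain with 2 records. The integrin alpha 3 (higher record) was at 6.86, 3.23, 8.24 and 6.07 FPKM in the vehicle libraries of clutch D, and at 9.07, 9.22, 3.25 and 11.9 FPKM in those with AGN193109. In the TTNPB libraries of clutch D it was listed at or near 0 in 3 and at 2.15 FPKM in the fourth, so these did not overlap the vehicle libraries. Such a split within 1 clutch was likewise not counted over all tested records. In clutch E the TTNPB libraries held 2.17, 4.56, 5.44 and 2.17 FPKM, and the vehicle libraries held 3.53, 3.49 and 4.12 FPKM with 1 near 0. Within clutch D alone, TTNPB minus vehicle was -2.36 (adjusted p 0.0494 from limma) and TTNPB minus AGN193109 was -2.70 (adjusted p 0.0123). The record was under 0.01 FPKM in 6 of 24 libraries, and values of records of 1 molecule are uncertain singly. These calls are therefore not read as a response of the gene. The share of all tested records called in clutch D is given for the first comparison in the section on processing. In clutch E the same differences were 0.45 and 1.36 and did not pass. Over both clutches TTNPB minus vehicle was -0.95 with a 95% interval from -2.08 to 0.17. The difference between the clutches in their response to TTNPB was 2.81 ± 0.72, with an unadjusted p of 0.000784 and an adjusted p of 0.770.

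The integrin alpha 3 (lower record) was at 2.09 ± 0.406 FPKM with vehicle, 2.67 ± 1.03 FPKM with TTNPB and 1.89 ± 0.683 FPKM with AGN193109. The sum of both alpha 3 records differed by -0.46 between TTNPB and vehicle, with a 95% interval from -1.22 to 0.30. Integrin beta-6, which pairs with alpha V, was low and uneven. It ran from 0 through 0.31 to 1.56 FPKM with TTNPB, from 0 through 0.94 to 3.18 FPKM with vehicle and from 0.76 through 2.23 to 5.95 FPKM with AGN193109. The record reached the minimum for testing only through the AGN193109 libraries, where it was highest. Its TTNPB difference from AGN193109, -1.15, is therefore not read, although the record stays in the counts at an unadjusted p.

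Integrin alphaV, whose dimers bind fibronectin and other matrix proteins, was at 4.86 ± 2.52 FPKM with vehicle, 5.28 ± 2.63 FPKM with TTNPB and 5.44 ± 2.58 FPKM with AGN193109. TTNPB minus vehicle was 0.11 with a 95% interval from -0.17 to 0.39. These wide SDs hold the difference between clutches given further on. Integrin alpha 6, a laminin-binding chain, was at 1.58 ± 0.324, 1.76 ± 0.426 and 1.80 ± 0.429 FPKM, and the record described only as integrin was at 6.61 ± 3.05, 5.25 ± 1.099 and 5.51 ± 2.35 FPKM.

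Proteoglycans had 0 of 3 tested syndecans and 0 of 1 glypican past the threshold in any comparison of exposures. Of all tested records at most 1.08% passed. Syndecan-1, the most abundant of the 54 records, ran from 97.6 through a median of 120 to 146 FPKM with vehicle, from 112 through 133 to 152 FPKM with TTNPB and from 65.6 through 131 to 152 FPKM with AGN193109. All 8 TTNPB libraries were above the vehicle mean of their clutch, yet the ranges overlapped widely. The fitted TTNPB difference from vehicle was 0.13 with a 95% interval from -0.16 to 0.42. Syndecan 2, which in Xenopus takes part in left-right signals from the ectoderm, was at 24.03 ± 5.53, 25.3 ± 4.84 and 23.4 ± 7.42 FPKM in the 3 groups. Syndecan-4.1, of the syndecan needed for convergent extension in Xenopus, was at 27.3 ± 11.9, 27.2 ± 10.15 and 29.1 ± 8.75 FPKM.

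Glypican-4, a membrane-anchored proteoglycan required for gastrulation movements in Xenopus and zebrafish, was at 15.8 ± 1.98 FPKM with vehicle, 17.9 ± 1.95 FPKM with TTNPB and 18.7 ± 4.33 FPKM with AGN193109. AGN193109 minus vehicle was 0.20 with a 95% interval from -0.08 to 0.49. Without AGN193109 4E, which held 9.61 FPKM, it was 0.34 with an adjusted p of 0.0786 (limma).

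Collagens were low except for 1 record. In any comparison of exposures 0 of 3 tested records passed, beside at most 1.08% of all tested records. The higher of the records described only as collagen was at 30.2 ± 6.51 FPKM with vehicle, 30.2 ± 4.29 FPKM with TTNPB and 26.9 ± 8.83 FPKM with AGN193109. The short variant of type XVIII collagen, a basement membrane collagen, was at 1.03 ± 0.398, 1.34 ± 0.399 and 1.02 ± 0.363 FPKM, and the long variant at 1.23 ± 0.321, 1.20 ± 0.324 and 1.07 ± 0.483 FPKM. Collagen alpha1(IV) was listed under 0.01 FPKM in 19 of 24 libraries and at 1.59 to 4.76 FPKM in the rest.

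The claudin record is a clone with likeness to human claudin-4, a tight junction protein. It ran from 34.3 through 71.2 to 139 FPKM with vehicle, from 38.4 through 61.3 to 117 FPKM with TTNPB and from 20.5 through 71.8 to 129 FPKM with AGN193109. TTNPB minus vehicle was -0.02, but with a 95% interval from -0.67 to 0.63 a change of 1.5-fold lies inside it.

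Records named for a partner had 0 of 13 past the threshold in any comparison of exposures, beside at most 1.08% of all tested records. Procollagen-proline came closest. Its description ends before the enzyme, but names that begin this way belong to subunits of hydroxylases of new collagen chains in the endoplasmic reticulum. Which subunit this record is, catalytic or not, is not known here. It ran from 41.5 through 49.1 to 55.2 FPKM with vehicle, from 54.3 through 64.7 to 71.9 FPKM with TTNPB and from 29.05 through 59.6 to 76.7 FPKM with AGN193109. All 8 TTNPB libraries were above the vehicle mean of their clutch, a count not made over all tested records. The ranges touched only near 55 FPKM. TTNPB minus vehicle was 0.38 ± 0.13 (fold 1.302), with an adjusted p of 0.366 over 24 libraries and 0.00276 without AGN193109 4E (limma). AGN193109 minus vehicle was 0.24 with a 95% interval from -0.03 to 0.50, and 0.36 without that library (adjusted p 0.0588).

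Of the remaining partners, syntenin, an adaptor that binds the syndecan tail, was at 15.9 ± 2.87, 15.1 ± 2.29 and 14.9 ± 2.05 FPKM with vehicle, TTNPB and AGN193109. Integrin-linked kinase, which ties beta integrins to actin, was at 5.89 ± 2.92, 5.68 ± 2.43 and 6.36 ± 2.20 FPKM. The sheddases ADAM17 and MDC9 (ADAM9), caught through the word disintegrin, lay at 7.11 ± 0.938 and 10.7 ± 1.14 FPKM with vehicle. ADAM17 had the largest negative difference from vehicle with AGN193109, -0.30 with an interval from -0.65 to 0.05, and this was -0.11 without AGN193109 4E, where the record was at 1.69 FPKM. The src homology collagen record, an adaptor of receptor kinases that is no matrix protein, was at 7.76 ± 1.24 FPKM with vehicle.

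More records passed between the 2 clutches than between any exposures. Clutch E against clutch D gave 17 of 43 records past the threshold, 2 higher and 15 lower in clutch E, beside 31.9% of all tested records (3.73% higher and 28.1% lower). The 17 include FLRT2, which reached the minimum for testing only through clutch D, where it was higher. Without adjustment the shares past 0.05 were equal, 18 of 43 records and 41.9% of all. As deposited, the median of all tested records was -0.20 and that of the 43 records -0.17. Clutch E also had the lower library medians, and the split of directions moved with the scaling. With quantile normalization 16 of 43 passed, 8 higher and 8 lower, beside 27.5% of all tested records. Upper-quartile scaling gave 16, again 8 higher and 8 lower, beside 27.7%. Centring each library on its median gave 17, 8 higher and 9 lower, beside 27.5%. In all 4 scalings 10 records passed in the same direction. The share of all tested records that did so was not computed, so this count is not read as a trait of the set. These clutches are 2 sibships, so the test compares them and no wider population.

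Integrin alphaV had the smallest adjusted p of the 43 records as deposited. In clutch D it ran from 5.92 through a median of 7.44 to 9.27 FPKM and in clutch E from 1.65 through 2.93 to 4.66 FPKM. No library of 1 clutch reached the other, whatever the exposure. This held for 2 of the 43 records, this one and the record described only as integrin, beside 3.63% of all tested records. For integrin alphaV the difference was -1.12 ± 0.11 (fold 0.461 of FPKM + 1, adjusted p 4.5e-08 from limma) as deposited and -0.90 after quantile normalization. The record described only as integrin ran from 5.85 to 12.4 FPKM in clutch D and from 1.12 to 5.67 FPKM in clutch E, a difference of -0.76 ± 0.14.

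The other 6 records that were lower in clutch E under all 4 scalings were integrin beta-1 subunit, syndecan 2, syndecan-4.1, protocadherin 18, integrin-linked kinase and the record described as catenin (cadherin-associated protein). Integrin beta-1 subunit had a mean of 40.3 ± 2.88 FPKM in clutch D and 27.4 ± 5.41 FPKM in clutch E (SD, n = 12 each), a difference of -0.56. The second beta 1 record, integrin beta 1, was at 25.8 ± 2.86 and 24.5 ± 4.96 FPKM, and the sum of the pair gave -0.36 ± 0.10 (adjusted p 0.00592). Syndecan-4.1 was at 35.2 ± 7.89 FPKM in clutch D and 20.5 ± 5.08 FPKM in clutch E, a difference of -0.75. Syndecan 2, protocadherin 18, integrin-linked kinase and the catenin differed by -0.52, -0.56, -0.76 and -0.53.

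The claudin-4 clone and XTCAD-1 cadherin were higher in clutch E under all 4 scalings. The claudin-4 clone had a median of 48.2 FPKM in clutch D, with a range from 25.0 to 113 FPKM, and of 105 FPKM in clutch E, with a range from 20.5 to 139 FPKM. Its ranges overlapped through AGN193109 2D, at 113 FPKM, and AGN193109 4E, at 20.5 FPKM. The difference was 0.87 ± 0.26 (adjusted p 0.0118 from limma), 1.07 without AGN193109 4E and 1.35 in the vehicle libraries alone. XTCAD-1 cadherin differed by 0.36 ± 0.11 (adjusted p 0.0120), by 0.43 without that library and by 0.22 in the vehicle libraries alone (adjusted p 0.178).

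Of the other 7 calls, C-cadherin passed as deposited (-0.40 ± 0.08, adjusted p 0.000629) and after centring (-0.17), but not with quantile or upper-quartile scaling. Paraxial protocadherin (-0.30), syntenin (-0.28), FLRT2 (-0.31), FLRT3 (-0.23), src homology collagen (-0.34) and blastomere cadherin (-1.23) passed in none of the 3 other scalings, and FLRT3 changed sign to 0.00 and 0.01 with quantile and upper-quartile scaling. FLRT2 reached the minimum for testing only through clutch D, with a mean of 1.23 FPKM there and 0.788 FPKM in clutch E. Quantile normalization in turn brought 6 further records above the threshold, all higher in clutch E, among them syndecan-1 (0.33), glypican-4 (0.28), integrin alpha 6 (0.39) and the higher collagen record (0.43). These 6 also hold the short collagen XVIII variant, which reached the minimum for testing only through clutch E. Its mean was 1.34 FPKM there and 0.920 FPKM in clutch D. How many of all tested records were gained in this way was not computed. Fibronectin differed by -0.27 with a 95% interval from -0.60 to 0.06 and passed under none of the 4 scalings. Without AGN193109 4E, 21 records passed, 5 higher, the short collagen XVIII variant among them, and 16 lower, beside 39.6% of all tested records.

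**Figure D5:**
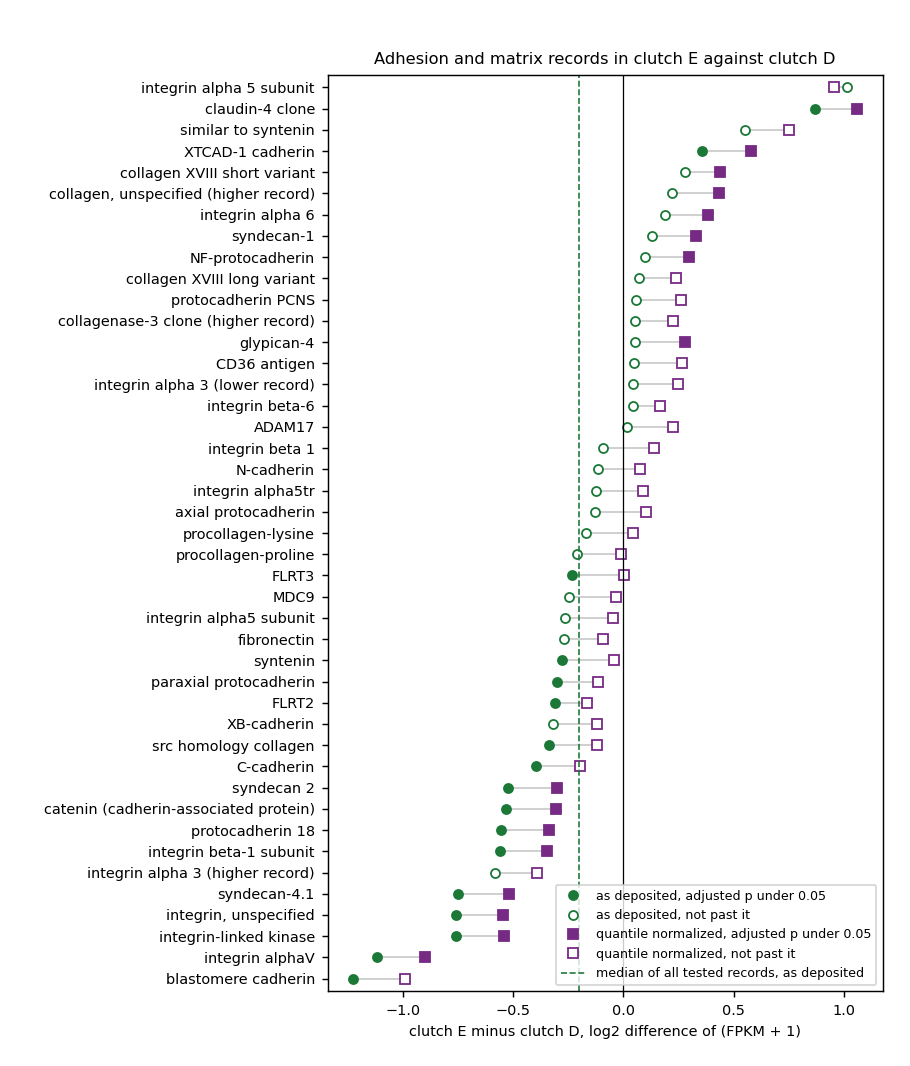
Difference of clutch E from clutch D for the 43 tested records on the log2(FPKM + 1) scale, as deposited (circles) and after quantile normalization (squares), filled where the adjusted p is under 0.05. The dashed line is the median of all tested records as deposited, -0.20, and normalization moves most records to the right, so that 8 filled squares lie on each side of 0.

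The plot of clutch differences shows that most calls far from 0 were kept after normalization, while several near 0 changed. For the difference between clutches in the response to an exposure, 0 of 43 records passed an adjusted p of 0.05 for either agent (limma interaction), beside 0% of all tested records. At an unadjusted p under 0.05 these interactions held 1 of 43 records for TTNPB (2.59% of all), the higher integrin alpha 3 record, and 2 of 43 for AGN193109 (5.68% of all), syndecan-4.1 and the integrin alpha 5 subunit, which was tested only through its levels in AGN193109 libraries of clutch E.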

How the data were processed

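Per the labels' protocols, the NuGEN Ovation kit turned total RNA of 5-embryo pools into amplified cDNA, which was sequenced as ABI SOLiD fragment libraries. The submitters' processing notes name TopHat, Bowtie and Cufflinks without versions. Which genome or transcript set they used was not given in the sources used here. Deposited values are the authors' FPKM for 31306 GenBank records in 24 libraries, with no counts, so depth is unknown and its effect on precision could not be computed. Cufflinks can divide fragments among similar transcripts, so values of near-identical records, such as copies of 1 molecule, are uncertain singly, and sums of such records were also fitted. More replicates per clutch are spoken of in the labels than the 4 analysed here.

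From these values, log2(FPKM + 1) was fitted for the 19635 records whose mean reached 1 FPKM, with limma 3.58.1 under R 4.3.3, using a trended empirical Bayes step, terms for exposure and clutch, and all 24 libraries. Differences and SEs are on that scale, which understates changes of low records. Adjustment followed Benjamini-Hochberg across the 19635 records, and 0.05 was the threshold. The interaction of exposure and clutch was a second fit. Several libraries can hold aliquots of the same dish, so the p-values here reflect variation among aliquots, which may be technical. The fit was tried on simulated data with independent noise, for TTNPB against vehicle only. That simulation held no clutch difference, no library set apart and no shared dishes, so it does not cover these features. No pair among 276 library pairs held identical values.

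The members and lists were chosen with earlier results of these data known. Named records were those past the threshold (up to 15 per comparison), the 2 most abundant of each family and the smallest p of each family per comparison, and a set of molecules with known roles in gastrulation. None of the 54 was described as E-cadherin, a laminin chain, glypican 3, claudin 6 or 7 or collagen II, so these are not analysed here by name. Records whose type or chain is not stated, such as XTCAD-1 cadherin and those that read only collagen, could not be assigned. Alternatives were pseudocounts of 0.1 and 0.5, no filter, minima of 0.5 and 5 FPKM, upper-quartile scaling and quantile normalization, fits to the compared exposures alone, a fit lacking clutch, replicate number as block, clutch means, each clutch alone, array weights and each library left out. Centring, sums of records and vehicle libraries alone were chosen after seeing the data.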

Additional observations from a re-analysis of the deposited data

Results flagged for a closer look

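In each record and exposure, the highest and the lowest of the 8 libraries were set against the others by Dixon's criterion, which chance alone meets in about 1 in 20 groups. Of 162 groups, 24 met it, 13 of them in library AGN193109 4E, whose median level was the lowest of all 24. In that library the lowest values of their group were 25.5 FPKM for XB-cadherin, 38.5 for paraxial protocadherin, 6.28 for axial protocadherin, 2.64 for protocadherin 18 and 13.0 for integrin beta 1. They were likewise 2.93 FPKM for the integrin alpha5 subunit, 20.8 for fibronectin, 7.96 for the higher collagen record, 1.43 for integrin-linked kinase and 2.35 for src homology collagen. Those of procollagen-lysine, procollagen-proline and ADAM17 were 1.75, 29 and 1.69 FPKM.

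The other 11 were single libraries far from the rest of their group. The integrin alpha 5 subunit record was highest at 0.00275 FPKM in vehicle 4E and at 0.397 FPKM in TTNPB 1D, both close to 0. Collagen alpha1(IV) was at 2.31 FPKM in vehicle 2E and at 2.24 FPKM in AGN193109 1D, with the others of its group at or near 0. The lower integrin alpha 3 record reached 5.04 FPKM in TTNPB 4D, where the next library held 2.89 FPKM. Integrin-linked kinase reached 12.2 FPKM in vehicle 2D, ADAM17 8.54 FPKM in TTNPB 3E and CD36 antigen 4.36 FPKM in AGN193109 4D. Photoreceptor cadherin reached 0.692 FPKM in AGN193109 3E and the MDC13 pseudogene 1.43 FPKM in TTNPB 3D, and neither was tested. The higher collagenase-3 clone was lowest at 0.175 FPKM in AGN193109 4D.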

How the results depend on the processing

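TTNPB against vehicle, with 0 of 43 records as reported, gave 2 with quantile normalization, 2 with upper-quartile scaling, 2 with only those exposures in the fit, 2 after centring on the library median and 3 with array weights, all higher with TTNPB. Shares of all tested records, 0.830% as reported, were 1.03%, 1.05%, 1.40%, 1.06% and 1.84% in that order. The XTCAD-1 cadherin and procollagen-proline were among these each time. Clutch D alone gave 1, the higher integrin alpha 3 record, which was lower, beside 0.244% of all. Leaving out each library in turn gave 0 to 3, with 3 without AGN193109 4E and 1 without TTNPB 2D, and no more than 0 without any other. TTNPB against AGN193109, with 1 record, gave 0 with only those exposures in the fit, 0 in clutch E alone, 0 when clutch means stood as replicates and 0 when the clutch term was left out, and 1 without each library. In clutch D alone the 1 record was the higher integrin alpha 3 record and not XTCAD-1 cadherin. Shares of all tested records are not given here for these settings, for AGN193109 against vehicle or for the libraries left out. A lost call is therefore not told apart from fewer calls at large. AGN193109 against vehicle stayed at 0 in every alternative run and gave 0 to 0 over libraries left out. Clutch E against clutch D, with 17, gave 14 to 21 over libraries left out and 10 in the vehicle libraries alone, beside 17.0% of all records there. FLRT3 changed sign between clutches, to 0.002236 with quantile normalization and 0.006454 with upper-quartile scaling. The interactions stayed at 0 of 43 in every alternative run. The cause of these changes was not tested, except that fits to fewer libraries estimate the spread from fewer.

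Libraries with the same replicate number did not deviate together: over 24 such pairs the correlations of deviations ran from -0.11 to 0.12, with 1 over 0.1. Over 72 pairs of unlike number within a clutch they ran from -0.13 to 0.17, with 3 over 0.1. The highest was that of TTNPB 4D with vehicle 3D. The replicate block gave 0, 0 and 1 of 43 records for TTNPB against vehicle, AGN193109 against vehicle and TTNPB against AGN193109, and 144, 3 and 191 of all records.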

Other observations

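Adhesion genes outside the name rule were read from 9 lists with 51 tested records (catenins and desmosomes, tight junctions, focal adhesion, matrix proteases, other matrix proteins, hyaluronan, planar polarity, snail and twist, eph and ephrin). Between exposures 2 of 51 passed, records of ephrin-B2, both in TTNPB against AGN193109, beside 1.08% of all tested records. The comparisons of TTNPB and AGN193109 with vehicle gave 0 of 51 (limma), beside 0.830% and 0.0204% of all, with 5 and 2 at an unadjusted p under 0.05. Ephrin-B2 is a membrane ligand of Eph receptors, and such pairs keep mesoderm and ectoderm apart in the Xenopus gastrula. The record ephrin-B2b (efnb2b) was at 11.9 ± 1.61 FPKM with vehicle, 16.1 ± 1.76 FPKM with TTNPB and 11.1 ± 1.87 FPKM with AGN193109 (SD, n = 8), and differed by 0.51 ± 0.11 between TTNPB and AGN193109 (limma, adjusted p 0.0150). The ephrin-B2 precursor was at 1.94 ± 2.93, 5.09 ± 3.23 and 0.621 ± 0.852 FPKM and differed by 1.88 ± 0.43 (adjusted p 0.0197). Another ephrin-B2 record, ephrin-B2a, was at 9.70 ± 3.17, 11.5 ± 2.78 and 9.87 ± 3.39 FPKM and did not pass. Against vehicle, the ephrin-B2b record differed by 0.42 with TTNPB (adjusted p 0.107).

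Between clutches 15 of the 51 passed as deposited, 2 higher and 13 lower in clutch E, beside 31.9% of all tested records. A record like junctional adhesion molecule 1, of the tight junction, was higher in clutch E by 0.97 ± 0.23, and STRABISMUS, of planar polarity, was lower by a difference of -0.78 ± 0.11. Alpha(E)-catenin, which links cadherins to actin, differed by -0.45 and hyaluronan synthase 2 by -0.49. These differences are as deposited, where the median of all tested records was -0.20. Other scalings were not examined for these lists.

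Of 2547 records described only by a gene number, 2338 matched a symbol from RefSeq (assembly Xenopus_laevis_v10.1), and 12 of these were in the families described above. Of the 12, 2 reached a mean of 1 FPKM, cldn12.S at 12.3 FPKM and gpc2.L at 1.40 FPKM, and neither passed between exposures (limma). The laminin record lamb2.L had a mean of 0.603 FPKM.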
